A study of Mus musculus with 35 samples.

Results

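Pattern recognition receptor, relay and C-type lectin genes were examined in hematopoietic stem and progenitor cells (HSPCs) with and without the histone demethylase JMJD1B. They comprised 38 of the 11982 gene names in the RNA-seq table, and were taken by name alone: Toll-like receptors (Tlr with a digit), NOD-like receptors (Nlrc, Nlrp, Nlrx and Nod), genes whose name begins with Clec, Myd88, the Irak genes, the Ticam genes, Casp1, Casp4, Pycard and Ly96, with 1 Nlrc gene left out and not analysed here. Cd14, Nod2, Tlr9 and Clec5a were not analysed here. The rule used no measured value. A name is not a function. The rule also took in Irak1bp1, an IRAK-binding protein, Clec16a, an endosomal protein named after a lectin domain, and Clec11a, a secreted growth factor of the bone marrow. The partners given below for Clec2d, Clec1b, Clec9a and Clec12a are not microbial.

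Toll-like receptors (TLRs) are membrane sensors of bacterial lipids, proteins and nucleic acids that signal through the adaptors MYD88 and TICAM1 and the IRAK kinases to NF-kB and interferon regulatory factors. NOD-like receptors sense similar cues in the cytosol, and some of them, such as NLRP3, assemble with PYCARD and caspase-1 into the inflammasome, which matures interleukin-1 beta. Many C-type lectin receptors bind fungal sugars or products of dying cells and signal through an ITAM motif, SYK and CARD9. Hematopoietic progenitors are themselves known to carry some of these receptors and to shift toward myeloid output when they are engaged.

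Polyadenylated RNA of bone marrow HSPCs was sequenced in 2 libraries from wild-type (WT) mice and in 2 from JMJD1B-/- mice, in a series of 35 samples whose ChIP-seq was not used here. All 4 libraries carry the strain label 129P2xC57BL/6J, the knockout is a whole-body gene trap made in embryonic stem cells, and the strain share of each mouse is not given. The study used adult mice of both sexes over a range of ages and describes age-matched littermates for its ChIP-seq, and the labels tie no age or sex to a library. The replicates are described as biological, and the labels do not say whether 1 mouse or a pool stands behind each. Values are RPKM, reads scaled to gene length and to the depth of the library, so that levels can be set side by side between genes, and values of a group are always given for replicate 1 and then replicate 2.

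Kdm3b, the gene of JMJD1B, was at 31.0 and 24.3 RPKM in the WT libraries and at 4.00 and 4.63 RPKM in the JMJD1B-/- libraries. Its level was lower in JMJD1B-/- cells by limma (adjusted p = 0.0314). All 12 stem and progenitor markers looked up, Kit, Cd34 and Myb among them, were listed. The library labelled WT replicate 2 stood apart by sex-linked genes, with Xist at 332 RPKM against 0.0510 or less in the other libraries, and with Ddx3y, Eif2s3y, Kdm5d and Uty at 0.265 to 1.33 RPKM against 9.003 to 64.5. JMJD1B-/- replicate 1 was the shallowest library, at a relative depth of 0.349 where WT replicate 1 is 1, against 1.40 for WT replicate 2 and 1.20 for JMJD1B-/- replicate 2. It had 156 entries listed at 0, and the other libraries had 43 to 53.

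Of the 38 genes, 11 were lower and 0 were higher in JMJD1B-/- than in WT HSPCs at an unadjusted p under 0.05 in limma, with the estimated log2 fold changes ranging from -2.57 to 1.89. The 11 genes are 28.9% of the 38, where 6.33% of all 11863 genes tested were lower at the same threshold and 3.81% were higher. The lower genes were Nlrp3, Nlrp1b, Casp1 and Casp4 of the inflammasome, Clec1b, Clec4e, Clec12a, Clec9a and Clec2i among the lectins, and the kinase genes Irak3 and Irak4. None of the 38 reached an adjusted p under 0.05 in limma, where 0.0421% of all genes did, and the lowest adjusted p was 0.0640, for Clec1b. Testing each gene on its own, with equal variances, also gave 0 genes after adjustment. At an unadjusted p under 0.05 that test gave 4 lower genes (Clec1b, Clec4e, Nlrp1b and Irak3) and 1 higher gene (Clec16a). Of all 11863 genes it gave 512 lower and 348 higher.

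The genotypes did not overlap, with JMJD1B-/- cells below WT cells in every library, for 17 of the 38 genes (44.7%), against 22.7% of all genes tested, and with JMJD1B-/- cells above for 2 of them (5.26%), against 20.1%. The median log2 fold change was -0.78 over the 38 genes and -0.02 over all genes. The table lists only genes that reach 1 RPKM in at least 1 library, and 8 of the 38 reached it in WT libraries alone and 2 in JMJD1B-/- libraries alone, so that the low genes were partly chosen by the group in which they are high. Over the 28 genes that reached 1 RPKM in both genotypes, which were set apart after the data were seen, 9 were lower and 0 higher, the genotypes did not overlap for 10 lower (35.7%) and 2 higher genes (7.14%), and the median was -0.68. In a bulk library, fewer cells of a type and less RNA per cell cannot be told apart.

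The count of lower genes depended on single libraries. Leaving out WT replicate 1 gave 4 lower genes, WT replicate 2 gave 4, JMJD1B-/- replicate 1 gave 17 and JMJD1B-/- replicate 2 gave 13 together with 3 higher genes. After adjustment 8 genes were lower once JMJD1B-/- replicate 1 was left out and 6 once JMJD1B-/- replicate 2 was, where the lone library is assumed to vary as the WT libraries do and 483 and 523 of all genes were lower. The 6 genes include Tlr4 and Clec4d, which are listed at 0 in that library. Over all genes these 4 settings gave 177, 272, 1309 and 1819 lower genes, so that the background moved with them. The medians without single libraries lay between -1.10 and -0.48, the latter without JMJD1B-/- replicate 2. With quantile normalization, 7 of the 38 genes were lower and 0 higher, and the split over all genes was 714 lower and 671 higher against 751 and 452 as deposited.

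**Figure D1:**
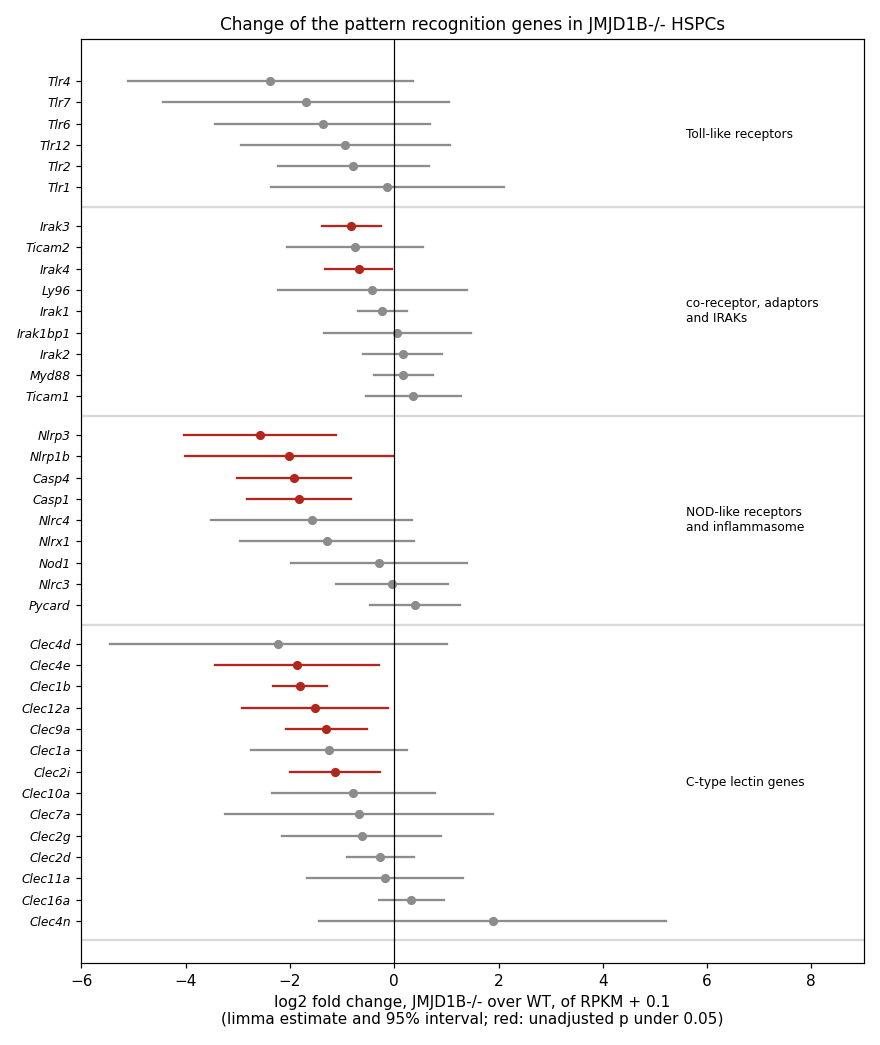
Log2 fold change of RPKM + 0.1 in JMJD1B-/- over WT HSPCs (x axis) for each of the 38 genes (y axis), grouped by role. Points are limma estimates from 2 libraries per genotype, bars are 95% intervals, and red marks an unadjusted p under 0.05. The 11 red genes all lie to the left of 0, from -2.57 for Nlrp3 to -0.68 for Irak4, and the intervals of the 6 Toll-like receptors all cross 0.

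The order of levels in WT HSPCs was led by 2 lectin genes and a kinase gene. Clec2d, a ligand of the NK cell receptor NKR-P1, had the highest mean, 50.3 ± 17.4 RPKM (SD, n = 2 libraries). It was followed by Clec1b at 45.0 ± 9.51, Irak1 at 28.7 ± 3.03, Clec12a at 21.0 ± 6.02 and Irak3 at 13.3 ± 1.66 RPKM. The WT values of Clec2d (62.6 and 37.9) and Clec1b (38.2 and 51.7) overlapped, whereas those of Irak1 (30.8 and 26.5) and Clec12a (25.3 and 16.8) did not overlap with the values next to them. Irak3 (14.4 and 12.1) overlapped with the gene that followed it, Clec9a (8.04 and 14.1). By contrast, the 6 Toll-like receptors had WT means of 0.646 to 1.52 RPKM, and the median WT mean over the 38 genes was 2.34 RPKM.

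**Figure D2:**
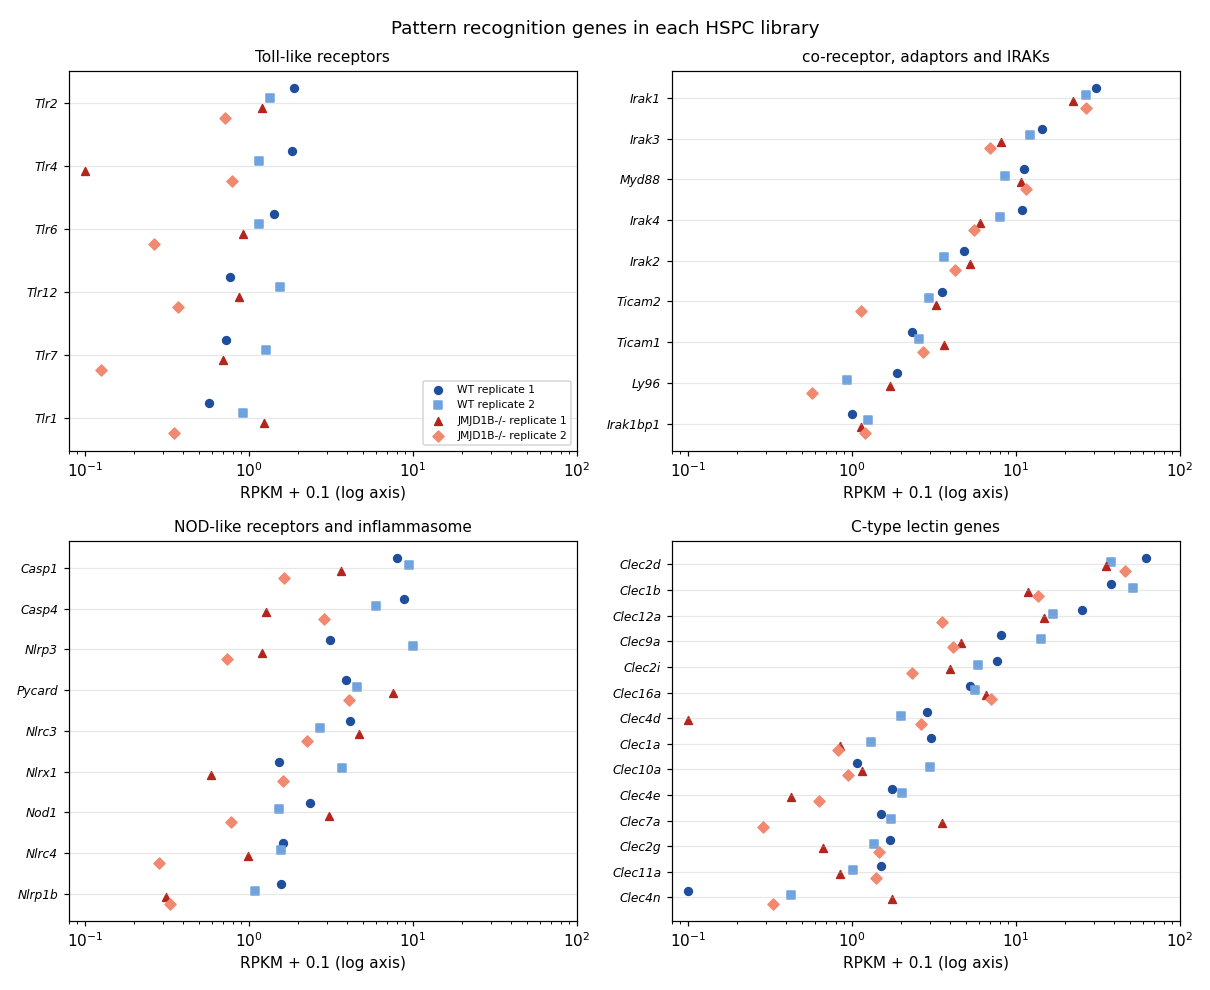
Level of each of the 38 genes in each of the 4 libraries, as RPKM + 0.1 on a log axis, in 4 panels by role, with genes in order of their WT mean. Blue symbols are the 2 WT libraries and red symbols the 2 JMJD1B-/- libraries. Clec2d, Clec1b and Irak1 sit highest, the Toll-like receptors sit near 1, and Tlr4 and Clec4d in JMJD1B-/- replicate 1 and Clec4n in WT replicate 1 are at 0.1 because they are listed at 0.

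Among the Toll-like receptors, 6 were listed and 0 passed the unadjusted threshold, with estimates between -2.37 and -0.13. Of the 6, only Tlr2 reached 1 RPKM in both genotypes, Tlr1 reached it in JMJD1B-/- cells alone and the other receptors in WT alone, so that the listing itself favours lower values and their direction is not counted here. Tlr4, the receptor of bacterial lipopolysaccharide, was at 1.74 and 1.06 RPKM in WT, was listed at 0 in JMJD1B-/- replicate 1 and was at 0.692 RPKM in replicate 2. Tlr2, which pairs with TLR1 or TLR6 to bind lipopeptides, was at 1.78 and 1.25 RPKM in WT and at 1.10 and 0.616 RPKM in JMJD1B-/- cells. Tlr7, an X-linked endosomal sensor of single-stranded RNA, was at 0.625 and 1.17 RPKM in WT and at 0.598 and 0.0254 RPKM in JMJD1B-/- cells. The groups did not overlap for any of these 3 genes, but for Tlr7 the lower WT library and the higher JMJD1B-/- library were close together. The adjusted p in limma was 0.549 for Tlr4, 0.701 for Tlr2 and 0.654 for Tlr7.

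The estimates were log2 fold changes of -2.37 for Tlr4 (SE 1.17), -0.78 for Tlr2 (SE 0.62) and -1.70 for Tlr7 (SE 1.17), each of which moved with single libraries. Tlr4 was at -0.88 without JMJD1B-/- replicate 1, whereas without JMJD1B-/- replicate 2 the gene is listed at 0 in the lone JMJD1B-/- library, and the size of the change (-3.87) and its call are set by the pseudocount of 0.1. With all libraries the estimate was -0.87 with a pseudocount of 1 and -4.03 with 0.01. Tlr7 was at -2.94, past the unadjusted threshold, without JMJD1B-/- replicate 1 and at -0.46 without JMJD1B-/- replicate 2, and it was at -1.29 without WT replicate 2, the library with Xist. Tlr1, Tlr6 and Tlr12 had estimates between -1.37 and -0.13, and Tlr6 was at -2.27, past the unadjusted threshold, without JMJD1B-/- replicate 1 and at -0.48 without JMJD1B-/- replicate 2. The median over the 6 receptors, -1.16, is not read as a direction, because 4 of them were listed through WT alone. For Tlr12, a receptor of profilin, the level was 0.666 and 1.45 RPKM in WT and 0.774 and 0.270 RPKM in JMJD1B-/- cells, so that the groups overlapped. The steps between libraries gave 37 and 113 reads for it in WT and 15 and 18 reads in JMJD1B-/- cells, at the unequal depths given above, and read numbers of the other receptors were not recovered.

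The co-receptor, the adaptors and the IRAK genes had 2 of 9 genes lower, 0 higher and a median log2 fold change of -0.23, which was 0.02 without JMJD1B-/- replicate 2. Myd88, the adaptor shared by most Toll-like receptors, was at 11.1 and 8.54 RPKM in WT and at 10.6 and 11.4 RPKM in JMJD1B-/- cells. Ticam1, the adaptor of TLR3 and TLR4 known as TRIF, was at 2.22 and 2.46 RPKM in WT and at 3.53 and 2.61 RPKM in JMJD1B-/- cells. Ly96, or MD-2, which holds lipopolysaccharide on TLR4, was at 1.78 and 0.831 RPKM in WT and at 1.62 and 0.469 RPKM in JMJD1B-/- cells. The groups overlapped for Myd88 and Ly96 and lay side by side, with JMJD1B-/- cells higher, for Ticam1. The 95% intervals of the log2 fold changes ran from -0.39 to 0.74 for Myd88, from -0.54 to 1.27 for Ticam1 and from -2.23 to 1.39 for Ly96.

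Of the 4 IRAK kinase genes, 2 passed the unadjusted threshold. Irak3, which encodes IRAK-M, a brake on TLR signaling found mainly in monocytes and macrophages, was at 14.4 and 12.1 RPKM in WT and at 8.03 and 6.83 RPKM in JMJD1B-/- cells. Irak4, the kinase that starts the cascade at MYD88, was at 10.7 and 7.91 RPKM in WT and at 5.97 and 5.48 RPKM in JMJD1B-/- cells. Irak1, its substrate and an X-linked gene, was at 30.8 and 26.5 RPKM in WT and at 22.3 and 26.8 RPKM in JMJD1B-/- cells. Both JMJD1B-/- libraries were below both WT libraries for Irak3 and Irak4, whereas the Irak1 values overlapped. The log2 fold change was -0.82 for Irak3 (SE 0.24, adjusted p = 0.347 in limma) and -0.68 for Irak4 (SE 0.27, adjusted p = 0.477 in limma), against -0.23 for Irak1 (SE 0.20, adjusted p = 0.733 in limma). Whether these changes differ from each other was not tested. The unadjusted call of Irak3 was lost without WT replicate 1 (log2 fold change -0.70), and that of Irak4 without WT replicate 1 (-0.46) or WT replicate 2 (-0.90) and with quantile normalization.

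The NOD-like receptors and inflammasome genes had 4 of 9 genes lower, 0 higher and a median log2 fold change of -1.58. Nlrc4 and Nlrp1b reached 1 RPKM in WT alone, and over the other 7 genes 3 were lower and the median was -1.28. Nlrp3, the sensor of the best studied inflammasome, was at 3.04 and 9.96 RPKM in WT and at 1.11 and 0.636 RPKM in JMJD1B-/- cells. Its JMJD1B-/- mean was 13.4% of the WT mean, the lowest share among the 11 lower genes, but the WT libraries themselves lay far apart. The log2 fold change was -2.57 (SE 0.63, adjusted p = 0.258 in limma), and without WT replicate 2 it was -1.73 and no longer passed the unadjusted threshold, whereas without WT replicate 1 it was -3.42. Nlrp1b, a sensor cleaved by anthrax lethal factor, was at 1.47 and 0.989 RPKM in WT and at 0.213 and 0.232 RPKM in JMJD1B-/- cells. Its log2 fold change of -2.02 (SE 0.86, adjusted p = 0.490 in limma) did not stay past the unadjusted threshold without WT replicate 1 (-1.76) or WT replicate 2 (-2.28). With all libraries its call was also lost with a pseudocount of 0.01 and with quantile normalization, and the estimate was -0.86 with a pseudocount of 1. Nlrp1b belongs to a family of close copies, and how the counting divided reads among such copies is not given in the sources used here.

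Both caspase genes were lower in JMJD1B-/- cells at the unadjusted threshold. Casp1, the protease that cleaves pro-interleukin-1 beta, was at 7.89 and 9.40 RPKM in WT and at 3.56 and 1.55 RPKM in JMJD1B-/- cells. Casp4, the mouse caspase-11 that binds intracellular lipopolysaccharide, was at 8.80 and 5.89 RPKM in WT and at 1.18 and 2.77 RPKM in JMJD1B-/- cells. Every WT value of both genes was above every JMJD1B-/- value, while the order of the 2 JMJD1B-/- libraries was opposite in the 2 genes. Estimated changes on the log2 scale were -1.83 for Casp1 (SE 0.42, adjusted p = 0.254 in limma) and -1.93 for Casp4 (SE 0.47, adjusted p = 0.258 in limma). Casp1 kept its unadjusted call with each library left out in turn, with values between -2.40 and -1.25, and Casp4 lost it without WT replicate 1 (-1.64).

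Other genes of this class did not pass the threshold. Pycard, which encodes the adaptor ASC that links NLRP3 to caspase-1, was at 3.82 and 4.47 RPKM in WT and at 7.43 and 4.01 RPKM in JMJD1B-/- cells. Nod1, a sensor of bacterial peptidoglycan, was at 2.27 and 1.44 RPKM in WT and at 2.998 and 0.684 RPKM in JMJD1B-/- cells. The groups overlapped for both, and the JMJD1B-/- values of Nod1 enclosed the WT values. The log2 fold change was 0.40 for Pycard (95% interval -0.47 to 1.26) and -0.29 for Nod1 (95% interval -1.97 to 1.39), and that of Nod1 was 0.06 with quantile normalization. Nlrc4, Nlrx1 and Nlrc3, a sensor of bacterial flagellin through NAIP proteins and 2 receptors known for restraining innate signals, had estimates of -1.58, -1.28 and -0.04, none past the threshold. Without JMJD1B-/- replicate 2, Pycard passed the unadjusted threshold as higher (0.83), and without JMJD1B-/- replicate 1 Nod1 passed it as lower (-1.28). Nlrc4 passed it without JMJD1B-/- replicate 1 (-2.48) and was at -0.68 without JMJD1B-/- replicate 2. Nlrx1 passed it without JMJD1B-/- replicate 2 (-2.01), and was at -0.56 without JMJD1B-/- replicate 1 and at -0.65 without WT replicate 2.

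The C-type lectin genes were the largest class, with 5 of 14 genes lower, 0 higher and a median log2 fold change of -0.96. Over the 11 that reached 1 RPKM in both genotypes, 4 were lower, 0 were higher and the median was -0.79. Clec1b, which encodes CLEC-2, the podoplanin receptor of platelets and megakaryocytes, was at 38.2 and 51.7 RPKM in WT and at 11.8 and 13.5 RPKM in JMJD1B-/- cells. Both JMJD1B-/- libraries were far below both WT libraries, and the JMJD1B-/- mean was 28.1% of the WT mean. On the log2 scale this was -1.81 (SE 0.22, adjusted p = 0.0640 in limma), and it ranged from -2.03 to -1.59 with each library left out in turn. Under every alternative run, Clec1b stayed past the unadjusted threshold, and no other gene of the 38 did. The 8 megakaryocyte and platelet markers looked up, Pf4, Vwf and Itga2b among them, summed to 701 and 639 RPKM in WT and to 277 and 393 RPKM in JMJD1B-/- cells. Of these 8, 5 were lower and 0 higher, Pf4 being at 348 and 308 RPKM in WT and at 92.8 and 167 RPKM in JMJD1B-/- cells. Their part in the change of Clec1b was not tested.

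Receptors of myeloid and dendritic cells followed. Clec12a, an inhibitory receptor of uric acid crystals on myeloid cells, was at 25.3 and 16.8 RPKM in WT and at 14.7 and 3.43 RPKM in JMJD1B-/- cells. Clec9a, which encodes DNGR-1, a receptor of actin exposed by dying cells that marks the cross-presenting dendritic cell lineage, was at 8.04 and 14.1 RPKM in WT and at 4.53 and 4.03 RPKM in JMJD1B-/- cells. Clec4e, which encodes Mincle, a receptor of mycobacterial cord factor, was at 1.65 and 1.92 RPKM in WT and at 0.324 and 0.528 RPKM in JMJD1B-/- cells. None of the 3 genes overlapped between genotypes, but JMJD1B-/- replicate 1 came within reach of the WT libraries for Clec12a. Clec4e reached 1 RPKM in WT alone, so that its listing favours lower values in JMJD1B-/- cells. The log2 fold change was -1.52 for Clec12a (SE 0.60, adjusted p = 0.472 in limma), -1.30 for Clec9a (SE 0.33, adjusted p = 0.278 in limma) and -1.86 for Clec4e (SE 0.67, adjusted p = 0.433 in limma).

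These calls rested on single libraries in different ways. Clec12a was not past the unadjusted threshold without WT replicate 1 (-1.22), WT replicate 2 (-1.81) or JMJD1B-/- replicate 2 (-0.48), and without JMJD1B-/- replicate 1 it was at -2.55. With all libraries its call was also lost with median-ratio scaling, with quantile normalization, in limma without a trend and in the gene-by-gene test. Clec9a lost its call without WT replicate 2 (-0.90), and Clec4e without WT replicate 1 (-1.97) or WT replicate 2 (-1.76) and with quantile normalization, and with a pseudocount of 1 Clec4e was at -0.97. The 9 dendritic cell markers listed summed to 53.9 and 71.5 RPKM in WT and to 54.3 and 50.7 RPKM in JMJD1B-/- cells, and 3 of the 9 were lower (Siglech, Ccr9 and Cd300c), Ccr9 and Cd300c being listed through WT alone. Of the 7 that reached 1 RPKM in both genotypes, 1 was lower. Both JMJD1B-/- libraries were below both WT libraries for 5 of the 9 and above them for 2, Zbtb46 and Flt3l. Zbtb46 was at 7.03 and 9.31 RPKM in WT and at 9.79 and 14.5 RPKM in JMJD1B-/- cells. Flt3l was at 8.86 and 10.8 RPKM in WT and at 10.9 and 11.4 RPKM in JMJD1B-/- cells, and neither passed the unadjusted threshold.

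Among the lectins of the Clec2 group, Clec2i was at 7.59 and 5.78 RPKM in WT and at 3.86 and 2.25 RPKM in JMJD1B-/- cells. Clec2d, the most abundant of the 38 genes, was at 62.6 and 37.9 RPKM in WT and at 35.3 and 46.3 RPKM in JMJD1B-/- cells. The groups were apart for Clec2i and overlapped for Clec2d. On the log2 scale the change was -1.14 for Clec2i (SE 0.37, adjusted p = 0.399 in limma) and -0.27 for Clec2d (SE 0.27, 95% interval -0.91 to 0.37). The call of Clec2i was lost without WT replicate 1 (-0.95) or WT replicate 2 (-1.33). Clec2i, Clec2d and Clec2g are similar in sequence, and how reads shared by such genes were counted is not given in the sources used here.

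The 2 fungal receptors with fixed places in the list were far apart between the 2 JMJD1B-/- libraries. Clec7a, which encodes Dectin-1, the receptor of fungal beta-glucan, was at 1.41 and 1.63 RPKM in WT and at 3.44 and 0.188 RPKM in JMJD1B-/- cells. Clec4d, which encodes a partner of Mincle, was at 2.79 and 1.89 RPKM in WT, was listed at 0 in JMJD1B-/- replicate 1 and was at 2.55 RPKM in replicate 2. For Clec7a the JMJD1B-/- libraries lay on either side of the WT libraries, and for Clec4d 1 JMJD1B-/- library lay within the WT range. The estimates were -0.68 for Clec7a (SE 1.10, adjusted p = 0.866 in limma) and -2.22 for Clec4d (SE 1.38, adjusted p = 0.625 in limma). Clec7a was at 1.13 once JMJD1B-/- replicate 2 was left out and at -2.49 once JMJD1B-/- replicate 1 was, each past the unadjusted threshold. Clec4d was at 0.14 without JMJD1B-/- replicate 1, and without JMJD1B-/- replicate 2 only a library in which it is listed at 0 remains, so that its value of -4.58 is set by the pseudocount. With all libraries Clec4d was at -0.81 with a pseudocount of 1 and at -3.85 with 0.01.

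The other 15 genes had log2 fold changes between -1.58 and 1.89, 11 of them below 0, and none passed the unadjusted threshold in limma with all libraries and a trend. Their WT means ran from 0.163 RPKM for Clec4n to 5.35 RPKM for Clec16a. Clec4n, which encodes Dectin-2, was listed at 0 in WT replicate 1 and was at 0.325 RPKM in WT replicate 2, against 1.66 and 0.231 RPKM in JMJD1B-/- cells, so that its estimate of 1.89 rests on values under 2 RPKM. This estimate was 0.68 without JMJD1B-/- replicate 1, 0.85 without WT replicate 1, 2.93 without WT replicate 2 and 3.096, past the unadjusted threshold, without JMJD1B-/- replicate 2. Clec16a was at 5.18 and 5.51 RPKM in WT and at 6.48 and 7.01 RPKM in JMJD1B-/- cells, and was 1 of the 2 genes with both JMJD1B-/- libraries above both WT libraries, the other being Ticam1. Ticam2, which encodes the TLR4 adaptor TRAM, and Irak2 lay at -0.75 and 0.16, and Ticam2 was at -1.52, past the unadjusted threshold, without JMJD1B-/- replicate 1 and at 0.01 without JMJD1B-/- replicate 2.

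The genes lie partly side by side on the chromosomes. With at most 2 protein-coding genes between neighbours in the RefSeq annotation, 15 of the 38 formed 5 runs, on chromosomes 5, 6 and 9, and members of a run share their region. The largest run held 6 lectin genes of chromosome 6 in the order Clec2d, Clec12a, Clec1b, Clec9a, Clec1a and Clec7a. Its estimates were -0.27, -1.52, -1.81, -1.30, -1.25 and -0.68, with 3 of the 6 past the unadjusted threshold and the weakest estimates at the ends. Clec1a, which encodes a receptor of fungal melanin, was at 2.93 and 1.22 RPKM in WT and at 0.750 and 0.725 RPKM in JMJD1B-/- cells. Its groups did not overlap, and it had an unadjusted call in limma only without a trend. It reached 1 RPKM in WT alone, so that its listing favours lower values in JMJD1B-/- cells. Casp1 and Casp4 on chromosome 9 were both lower, whereas Tlr1 and Tlr6 on chromosome 5 were at -0.13 and -1.37. In the run of Clec4n, Clec4d and Clec4e the estimates were 1.89, -2.22 and -1.86, where Clec4n was listed through JMJD1B-/- cells alone and Clec4e through WT alone.

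**Figure D3:**
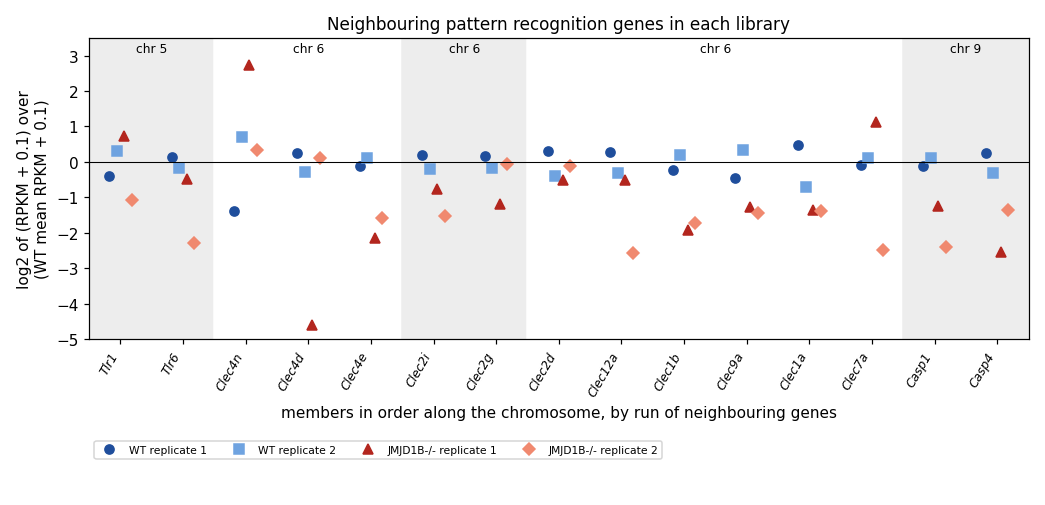
Log2 of RPKM + 0.1 in each library over the WT mean RPKM + 0.1 (y axis) for the 15 genes that lie in 5 runs of neighbours, in chromosome order (x axis, with shading by run). Blue symbols are the 2 WT libraries and red symbols the 2 JMJD1B-/- libraries. In the run of 6 lectin genes both red symbols lie below both blue ones for Clec12a, Clec1b, Clec9a and Clec1a but not for Clec2d or Clec7a. Clec1a was listed through WT alone, so that the listing favours its order.

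For the 3 lower genes of the lectin run and for the 2 caspase genes, the 250 bases before the RefSeq transcription start are printed to show what the neighbours do and do not share in sequence. They are from the RefSeq table of assembly GRCm38.p6, all on the plus strand, at chr6:129349994-129350243 for Clec12a, chr6:129397047-129397296 for Clec1b, chr6:129408612-129408861 for Clec9a, chr9:5298267-5298516 for Casp1 and chr9:5308599-5308848 for Casp4. Short motifs were searched on both strands: the core motif of PU.1 as GAGGAAG, that of C/EBP as TTGCNNAA, that of RUNX factors as TGTGGTT, that of GATA factors as AGATAA, that of NF-kB as GGGNNTTTC and that of interferon response elements as GAAANNGAA. Capitals mark every match in the windows.
Clec12a: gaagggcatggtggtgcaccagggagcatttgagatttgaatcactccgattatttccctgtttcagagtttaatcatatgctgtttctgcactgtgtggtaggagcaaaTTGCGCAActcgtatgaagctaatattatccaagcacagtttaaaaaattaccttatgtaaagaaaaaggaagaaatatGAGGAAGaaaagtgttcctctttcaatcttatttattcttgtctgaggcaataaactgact
Clec1b: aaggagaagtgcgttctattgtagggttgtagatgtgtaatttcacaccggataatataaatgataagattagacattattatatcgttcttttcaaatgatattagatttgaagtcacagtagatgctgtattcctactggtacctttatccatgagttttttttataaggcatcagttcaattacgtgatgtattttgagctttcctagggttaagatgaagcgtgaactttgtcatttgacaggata
Clec9a: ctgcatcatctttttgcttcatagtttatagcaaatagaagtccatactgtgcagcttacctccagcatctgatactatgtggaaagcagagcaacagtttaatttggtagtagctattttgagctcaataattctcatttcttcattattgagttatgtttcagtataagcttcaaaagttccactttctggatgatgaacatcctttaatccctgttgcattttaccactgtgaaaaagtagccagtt
Casp1: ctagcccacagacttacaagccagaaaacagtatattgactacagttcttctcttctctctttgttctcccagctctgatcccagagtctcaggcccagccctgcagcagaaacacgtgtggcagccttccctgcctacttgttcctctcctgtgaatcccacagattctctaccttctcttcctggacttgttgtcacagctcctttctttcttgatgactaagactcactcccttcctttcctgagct
Casp4: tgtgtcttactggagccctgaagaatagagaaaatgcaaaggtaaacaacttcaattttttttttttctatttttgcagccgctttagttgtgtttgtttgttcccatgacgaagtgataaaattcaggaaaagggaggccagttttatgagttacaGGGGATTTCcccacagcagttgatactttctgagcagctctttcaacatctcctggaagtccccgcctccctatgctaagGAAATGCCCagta

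The Clec12a window held GAGGAAG, which starts 61 bases before the transcription start, and TTGCGCAA, a C/EBP match that reads the same on both strands, which starts 140 bases before it. The Casp4 window held 2 NF-kB matches, GGGGATTTC at 93 bases before the start and GAAATGCCC, on the minus strand, at 13 bases before it. The letters searched were not in the windows of Clec1b, Clec9a and Casp1. Other forms of these motifs, such as TGATAA for GATA factors, were not searched. TGATAA is in the printed windows of Clec1b and Casp4 and was not counted over all windows. A promoter window was found for 31 of the 38 genes. GAGGAAG was in 8 of the 31 (25.8%) and in 10.4% of all 27025 windows, and TTGCNNAA was in 8 (25.8%) and in 9.55%. TGTGGTT was in 4 (12.9%) and in 4.46%, AGATAA in 2 (6.45%) and in 10.3%, GGGNNTTTC in 2 (6.45%) and in 3.79%, and GAAANNGAA in 3 (9.68%) and in 7.16%. These are counts of letters and not of bound sites.

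Genes that carry the signal of these receptors were looked up in 4 lists, of which 67 of 71 genes were tested. At an unadjusted p under 0.05 in limma, 15 of the 67 were lower (22.4%) and 0 higher, against 6.33% lower and 3.81% higher over all genes, their median log2 fold change was -0.36, and none passed after adjustment. Over the 63 of them that reached 1 RPKM in both genotypes, 12 were lower (19.0%), 0 were higher and the median was -0.30. Without single libraries the lower count was 5 with WT replicate 1 left out, 6 with WT replicate 2, 29 with JMJD1B-/- replicate 1 and 20 with JMJD1B-/- replicate 2, where the counts over all genes were 177, 272, 1309 and 1819. The adaptors and relay of the C-type lectins had 5 of 14 genes lower and a median of -0.53. Card9, the scaffold that joins SYK to NF-kB, was at 34.4 and 27.9 RPKM in WT and at 8.34 and 4.95 RPKM in JMJD1B-/- cells. Its log2 fold change was -2.25 (SE 0.29, adjusted p = 0.0714 in limma), and the groups were well apart. Fcer1g, the ITAM chain that pairs with Mincle and Dectin-2, was at 25.9 and 19.9 RPKM in WT and at 16.5 and 3.97 RPKM in JMJD1B-/- cells (log2 fold change -1.47). The estimates of the kinase genes Syk and Prkcd and the phospholipase gene Plcg2 were -0.57, -0.77 and -1.07.

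In the list of inflammasome partners and products, 4 of 18 genes were lower and the median was -0.41, and 2 of 15 were lower among those that reached 1 RPKM in both genotypes. Aim2, a sensor of cytosolic DNA, was at 18.1 and 20.8 RPKM in WT and at 7.21 and 4.95 RPKM in JMJD1B-/- cells, with a log2 fold change of -1.68 (SE 0.26, adjusted p = 0.117 in limma). The groups did not overlap. Mefv, which encodes pyrin, Casp12, which lies in the caspase cluster with Casp1 and Casp4, and Casp8 were at -2.25, -1.95 and -0.52, where Mefv and Casp12 reached 1 RPKM in WT alone. In the list of TLR trafficking and signal relay, 5 of 28 genes were lower and the median was -0.17. Unc93b1, the chaperone that takes endosomal TLRs to their compartment, was at -1.17, and the lipopolysaccharide-binding protein gene Lbp, which reached 1 RPKM in WT alone, at -1.87. Cd180 and Ly86, which encode the receptor RP105 and its partner MD-1, relatives of TLR4 and MD-2, were at -0.69 and -1.99, and Irf8, a transcription factor of monocytes and dendritic cells, at -1.50. Of 8 other nucleic acid sensors, 1 was lower, Tmem173, which encodes STING (-1.97).

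Markers of other cell types moved with the genotypes. Of 14 monocyte and macrophage markers looked up, 10 were listed. They summed to 175 and 184 RPKM in WT and to 142 and 44.3 RPKM in JMJD1B-/- cells. Of these 10, 5 were lower and 0 higher, and none was at 0 in any library. Emr1 alone of the 10 had an estimate above 0 (log2 fold change 0.95), and its groups overlapped. The 6 neutrophil progenitor markers summed to 286 and 196 RPKM in WT and to 73.0 and 32.4 RPKM in JMJD1B-/- cells. Of these 6, 5 were lower, Mpo and Elane among them, and 0 were higher. The estimate of Cebpe was above 0 (log2 fold change 0.70, SE 1.09), and its groups overlapped. The 8 basophil and mast cell markers listed summed to 538 and 612 RPKM in WT and to 157 and 110 RPKM in JMJD1B-/- cells, with 7 lower and Gata1, which erythroid cells also express, higher. Without Gata1 they summed to 505 and 576 RPKM in WT and to 113 and 46.4 RPKM in JMJD1B-/- cells. By contrast, the 8 erythroid markers summed to 234 and 343 RPKM in WT and to 585 and 1162 RPKM in JMJD1B-/- cells, with 7 of 8 higher. The 8 mature neutrophil markers listed were also higher in sum, at 29.0 and 14.2 RPKM in WT and at 73.1 and 33.8 RPKM in JMJD1B-/- cells. Of the 6 of them tested, 3 were higher, S100a8, S100a9 and Retnlg, and 2 were lower, Cxcr2 and Csf3r, and Retnlg alone was at 7.10 and 0.266 RPKM in WT and at 46.5 and 6.45 RPKM in JMJD1B-/- cells. The 12 stem and progenitor markers summed to 489 and 451 RPKM in WT and to 302 and 431 RPKM in JMJD1B-/- cells, 5 of them being lower. The 38 genes together summed to 281 and 256 RPKM in WT and to 173 and 160 RPKM in JMJD1B-/- cells. The part of these marker changes in the levels of the receptors was not tested.

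**Figure D4:**
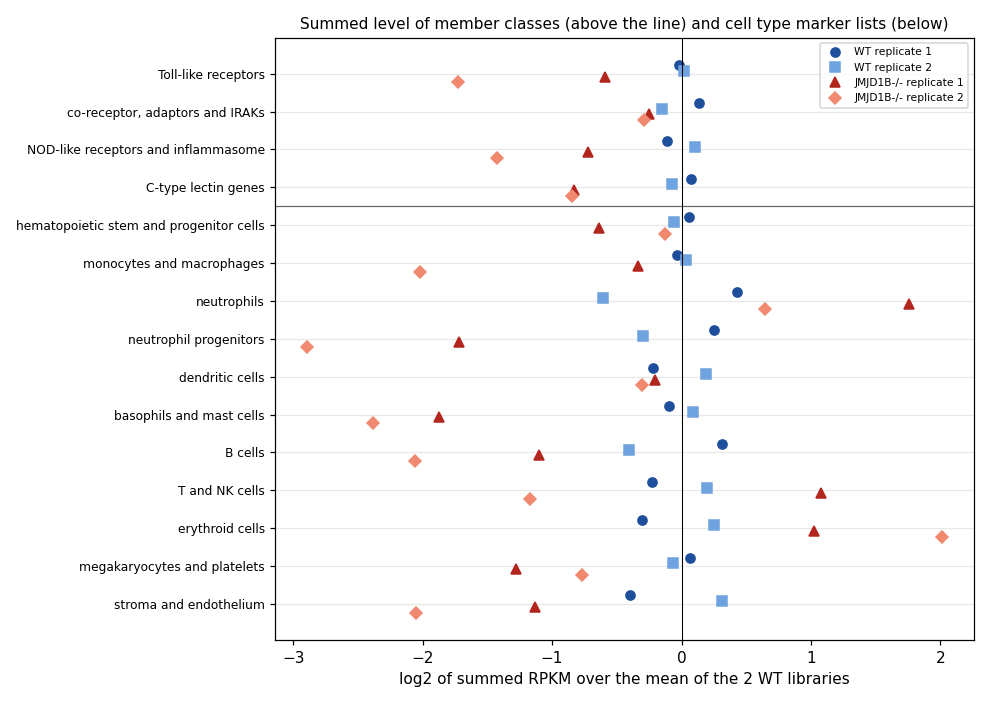
Log2 of the summed RPKM of each set in each library over the mean of the 2 WT libraries (x axis), for the 4 classes of pattern recognition genes (above the line) and for 11 lists of cell type markers (below it). Blue symbols are WT and red symbols JMJD1B-/- libraries. Both JMJD1B-/- libraries lie to the left of both WT libraries for the 4 classes. For the Toll-like receptors this is not read as a direction, because 4 of them were listed through WT alone. The same order holds for the stem and progenitor, monocyte and macrophage, neutrophil progenitor, basophil and mast cell, B cell, megakaryocyte and stroma lists. The B cell list is 1 gene, Cd79b, of 8 looked up. Of the stroma sums of 45.3 and 74.4 RPKM in WT, Pecam1 alone made 34.0 and 33.9 RPKM. Both JMJD1B-/- libraries lie to the right for the erythroid and neutrophil lists. They overlap with WT libraries for the dendritic cell list and the T and NK cell list.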

How the data were processed

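Polyadenylated RNA of bone marrow HSPCs was analysed from 2 WT and 2 JMJD1B-/- libraries. RPKM values for these libraries were deposited as 1 table, after the authors had added 1 to each, which was subtracted here. The submitters' processing notes name TopHat2, Novoalign and mm9 without saying which served which assay, and the counting program and gene annotation are not given in the sources used here. Of 12024 entries, 42 names with several entries were averaged. The table holds no counts, so only relative depth was estimated, from 169 low genes whose values stood in whole-number proportions, and the total depth is unknown.

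Genes whose mean RPKM reached 0.5 were tested two-sided on log2(RPKM + 0.1) in limma 3.58.1, run in R 4.3.3 with its functions lmFit and eBayes and a mean-variance trend, with Benjamini-Hochberg adjustment over 11863 genes. On this scale the change of low genes depends on the pseudocount, which sets its size for genes listed at 0 in a library. The paper names a two-tailed Student test in general, which was run as the gene-by-gene alternative. Further alternatives were other pseudocounts, filters and scalings, limma without a trend, a replicate block and leaving out each library. The code was tested on simulated data. Other steps used matplotlib 3.10.9, pandas 2.3.3 and numpy 2.4.6 in Python 3.11.15.

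The members, the gene lists and the tests were chosen with earlier results of these data known. Given by library were members with an unadjusted p under 0.05, the 5 of highest WT mean and a written list of receptors and adaptors. Other members that are given by library (Clec1a, Clec4n, Clec16a, Tlr12) were chosen after their values were seen, and of the pathway genes those with an unadjusted p under 0.05 are named. RefSeq (GRCm38.p6) was used for neighbours and promoter windows, and its coordinates were not set against mm9. P-values in limma rest on a spread between libraries that is estimated partly from other genes. Those of the gene-by-gene test rest on the libraries of the gene itself.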

Additional observations from a re-analysis of the deposited data

How the results depend on the processing

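With 2 libraries per genotype and an unknown total depth, values near 1 RPKM are imprecise, and the relative depth of JMJD1B-/- replicate 1 limits low genes most. The 11 lower genes kept their sign under every alternative that tested them. With all libraries in the fit, 7 kept an unadjusted p under 0.05 with quantile normalization, 4 in the gene-by-gene test, 9 with the replicate block and 10 or 11 under the other alternatives.

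With log2(RPKM + 1) the number of all genes at an adjusted p under 0.05 was 15 lower and 3 higher, against 4 and 1 as reported, and 1 of the 38 genes passed, Clec1b. The medians were then -0.50 for the Toll-like receptors, -0.79 for the NOD-like receptors and -0.64 for the lectins. With log2(RPKM + 0.01) 2 genes were lower after adjustment and the NOD-like receptor median was -1.84, and with a mean RPKM of at least 1 these values were 2 and -1.43. Median-ratio scaling gave 0 lower genes after adjustment and 1 higher pathway gene, where 632 of all genes were higher at an unadjusted p under 0.05. Quantile normalization gave 0 lower genes after adjustment, 7 lower members, 2 higher pathway genes, medians of -0.037 for the adaptors and IRAKs, -1.43 for the NOD-like receptors and -0.70 for the lectins, and a log2 fold change of 0.056 for Nod1. Limma without a trend gave 0 lower and 0 higher genes after adjustment. The gene-by-gene test gave 0 and 0, with 4 members lower, 1 member higher and 7 pathway genes lower at an unadjusted p under 0.05. Over all genes that test gave 512 lower and 348 higher at this threshold. Over members at 1 RPKM or more in both genotypes, an alternative chosen after seeing the data, as were the same count for pathway genes and the marker sum without Gata1, the NOD-like receptor median was -1.28. The cause of these shifts was not tested, except that stricter filters test fewer genes.

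With the replicate number as a block, 173 genes were lower and 83 higher after adjustment, 5 of them among the 38 (Casp1, Casp4, Clec12a, Clec1b and Nlrp3), while Clec4e and Nlrp1b no longer had an unadjusted p under 0.05 and Clec4d did. The differences between replicates of the 2 genotypes had a correlation of -0.05 over 11863 genes, and nothing in the labels says that a number marks a shared litter, so the numbers only name the libraries.

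With each library left out in turn, the number of all genes at an unadjusted p under 0.05 ranged from 177 to 1819 lower and from 123 to 1258 higher, and after adjustment from 0 to 523 and from 0 to 147. Lower members numbered 4 to 17 and higher ones 0 to 3, and after adjustment 0 to 8 and 0 to 0. Lower pathway genes numbered 5 to 29 and higher ones 0 to 3. The medians ranged from -1.10 to -0.48 for all members, from -1.36 to -0.44 for the Toll-like receptors, from -1.64 to -1.25 for the NOD-like receptors and from -1.10 to -0.70 for the lectins. The median of the adaptors and IRAKs ranged from -0.33 to 0.018 and turned positive without JMJD1B-/- replicate 2. Among the 23 genes given by rule with each library, the sign turned for 7, whose log2 fold changes ranged from -0.63 (without WT replicate 2) to 0.093 (without WT replicate 1) for Clec2d, from -1.22 (without JMJD1B-/- replicate 1) to 0.37 (without JMJD1B-/- replicate 2, and 0.087 without WT replicate 1) for Ly96, and from -0.0091 (without WT replicate 2) to 0.36 (without WT replicate 1) for Myd88. Pycard ranged from -0.040 to 0.83, Nod1 from -1.28 to 0.70 (with 0.020 without WT replicate 1) and Clec7a from -2.49 to 1.13, each without JMJD1B-/- replicate 1 and 2, and Clec4d from -4.58 (without JMJD1B-/- replicate 2) to 0.14 (without JMJD1B-/- replicate 1). The cause was not tested.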
